A study of Mus musculus with 4 samples.

Results

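The H3K79me2 peaks described here are those on every chromosome other than 1 and 7, taken from ChIP-seq peak lists of control and methotrexate (MTX)-treated mouse embryonic stem cells (mESC). They number 212 of the 432 peaks called (control 150 of 271, MTX 62 of 161). The cells were mESC of the Sv/129 strain, which are pluripotent cells kept in culture with leukemia inhibitory factor. The control was grown in normal folate, with 1 week in its label. The treated cells received 1 μM MTX, for 24 h by the protocol but for 12 h by the sample title and by the legend to the ChIP-seq plots. A single ChIP library and a single input library, which is 2% of the chromatin sequenced without the antibody step, were made per condition. After removal of duplicates, 14763032 ChIP tags and 15606892 input tags remained in the control, and 15648281 ChIP tags and 14507662 input tags in MTX. With 1 library of each kind per condition, no difference between conditions has a replicate check, no p-value was computed, and the intervals given below cover counting error only.

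H3K79me2 is placed by the methyltransferase DOT1L, which has no SET domain and uses S-adenosylmethionine as methyl donor. The mark is known to lie over the first part of transcribed genes, often over several kilobases, and its level follows transcription. MTX inhibits dihydrofolate reductase and thereby the folate cycle, which feeds the methyl group supply. Many of the loci below are tandem gene families, which are neighbouring genes that arose by duplication and remained similar in sequence. Peaks were divided by distance. A peak was called grouped when another peak of either list lay within 500 kb on the same chromosome, and isolated when none did. Grouped peaks linked at such distances form a chain.

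Only 1 RefSeq promoter window (250 bases before to 50 after a gene start, assembly GRCm38.p6) was touched by any of the 212 peaks, and it was touched by a peak of each list. It belongs to Gm21190, a predicted gene of the Speer array on chromosome 5, at chr5:15529173-15529472 on the minus strand. The control peak covered 179 of its 300 bases and the MTX peak 237. It is shown first, 5′ to 3′, with the 179 bases under both peaks in capitals. The next pairs are chosen examples of near-identical neighbours in these arrays, and not all neighbours there are this alike. Speer4c (chr5:15714222-15714521, minus strand) and Gm17019 (chr5:15032958-15033257, minus strand) lie in the same array, and both genes hold peaks. Their windows were 98.0% identical over 300 bases, and the 6 differing bases are in capitals. Cyp3a41a (chr5:145720087-145720386, minus strand) and Cyp3a41b (chr5:145584681-145584980, minus strand) encode cytochrome P450 enzymes of the 3A family, and each holds a peak. Their windows differed at 1 of 289 aligned bases, again in capitals, and the last bases of each window lie outside the alignment.
Gm21190: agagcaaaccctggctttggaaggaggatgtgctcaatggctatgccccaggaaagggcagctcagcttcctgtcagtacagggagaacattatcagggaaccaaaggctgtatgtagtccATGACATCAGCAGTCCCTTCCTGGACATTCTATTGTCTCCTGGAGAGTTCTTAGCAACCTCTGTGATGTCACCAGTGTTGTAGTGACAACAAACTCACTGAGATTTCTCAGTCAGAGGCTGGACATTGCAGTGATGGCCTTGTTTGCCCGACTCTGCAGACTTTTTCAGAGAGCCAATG
Speer4c: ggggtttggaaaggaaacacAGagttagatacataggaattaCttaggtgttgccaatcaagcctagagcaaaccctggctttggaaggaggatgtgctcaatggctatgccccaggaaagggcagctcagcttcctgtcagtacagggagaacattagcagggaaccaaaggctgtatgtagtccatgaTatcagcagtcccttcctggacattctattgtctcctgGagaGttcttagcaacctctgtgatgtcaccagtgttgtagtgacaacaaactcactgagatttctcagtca
Gm17019: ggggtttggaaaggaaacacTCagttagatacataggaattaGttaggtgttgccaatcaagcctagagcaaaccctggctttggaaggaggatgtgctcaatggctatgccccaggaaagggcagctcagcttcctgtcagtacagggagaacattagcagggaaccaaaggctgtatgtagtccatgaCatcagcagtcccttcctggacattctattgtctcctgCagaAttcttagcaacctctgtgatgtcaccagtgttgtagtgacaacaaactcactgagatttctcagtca
Cyp3a41a: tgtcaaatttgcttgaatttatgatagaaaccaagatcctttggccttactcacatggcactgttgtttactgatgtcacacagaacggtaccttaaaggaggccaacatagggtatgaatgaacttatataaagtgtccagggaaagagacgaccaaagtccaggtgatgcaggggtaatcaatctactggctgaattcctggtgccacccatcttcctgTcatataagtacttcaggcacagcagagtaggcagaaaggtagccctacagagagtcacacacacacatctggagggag
Cyp3a41b: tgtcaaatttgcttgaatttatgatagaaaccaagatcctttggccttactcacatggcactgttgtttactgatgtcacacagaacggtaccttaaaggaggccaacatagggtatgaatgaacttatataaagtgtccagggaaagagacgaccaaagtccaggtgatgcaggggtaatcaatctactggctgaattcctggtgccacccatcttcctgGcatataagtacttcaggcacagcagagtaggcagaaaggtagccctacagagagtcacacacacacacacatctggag
The substitutions from Speer4c to Gm17019, counted from 1 at the 5′ end of the window, were A21T, G22C, C43G, T191C, G229C and G233A. The substitution from Cyp3a41a to Cyp3a41b was T222G.

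The MTX list was short of isolated peaks. Of the 150 control peaks, 73 were grouped and 77 isolated, so 48.7% were grouped (95% Wilson interval 40.8 to 56.6%). Of the 62 MTX peaks, 48 were grouped and 14 isolated, so 77.4% were grouped (65.6 to 86.0%). The MTX to control ratio of peak number was 0.182 among isolated peaks (0.104 to 0.319) and 0.658 among grouped peaks (0.458 to 0.945). For the whole series the ratio was 0.594 (0.489 to 0.722), with 0.628 on chromosome 1 (0.454 to 0.868) and 1.48 on chromosome 7 (0.914 to 2.40). When only neighbours of the same list were counted, a rule chosen after the data were seen, the ratios were 0.198 and 0.667. The interval of the grouped ratio came to include equal numbers at a distance of 100 kb (0.763, 0.519 to 1.12), a q-value of at most 0.01 (0.714, 0.488 to 1.04) and a fold enrichment of at least 5 (0.818, 0.443 to 1.51). A lower number of grouped peaks in MTX was thus not shown beyond counting error under each of these, while the isolated ratio was at most 0.207 in them. No ratio by chain size is given, because the size counts the peaks of both lists. The intervals treat peaks as independent, which neighbours in an array are not.

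**Figure D1:**
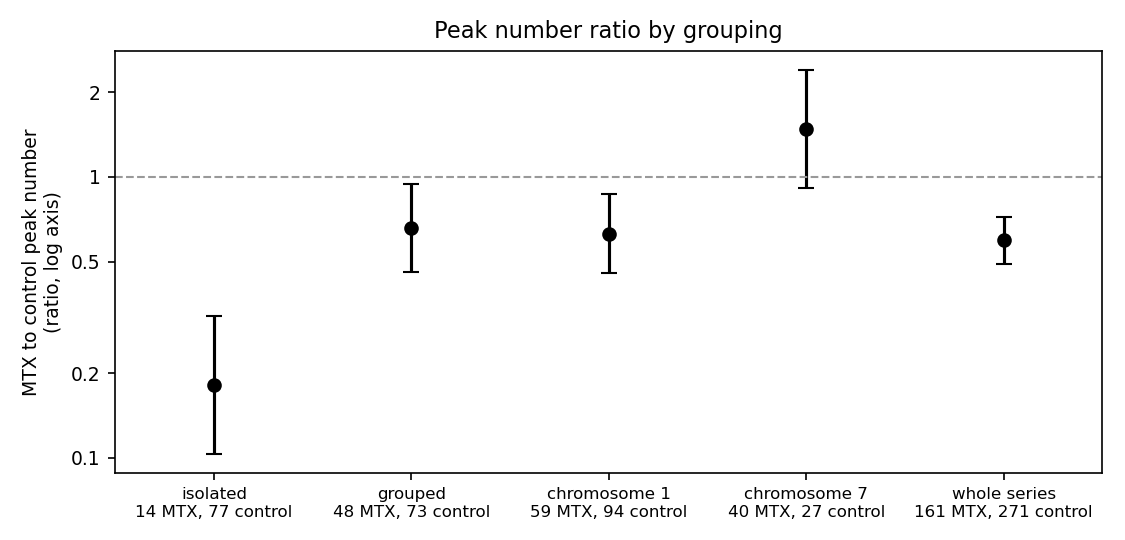
Ratio of MTX to control peak number (log axis) for isolated and grouped peaks outside chromosomes 1 and 7, for chromosomes 1 and 7, and for all chromosomes of the series; bars are 95% Wilson intervals and the dashed line marks equal numbers. The ratio was 0.182 for isolated peaks and 0.658 for grouped peaks, and only on chromosome 7, at 1.48, did the point lie above equal numbers.

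By chromosome, peaks were most numerous on chromosome 14, with 24 control peaks and 11 MTX peaks, and on chromosome 5, with 14 and 13. Chromosome 14 had 10 isolated control peaks and 0 isolated MTX peaks. Chromosomes 15, 8 and 18 had 8, 2 and 3 control peaks, with 0 of the MTX list. The single peak of chromosome 19 was an isolated MTX peak, and chromosomes 16 and Y had 0 peaks in either list.

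The median input background was higher for grouped than for isolated peaks in both lists, with intervals clearly apart in the control only. The local input background is the number of input tags that the peak caller expected at the summit, after scaling to the smaller library, recovered as the pileup plus 1, divided by the fold enrichment, minus 1. The pileup is the number of ChIP fragments over the summit. The scaling multiplied the control input by 0.946 and left the MTX input as it was. The lowest value the caller uses is the genome average, which was 1.03 tags for the control and 1.02 tags for MTX. In the control list, the median background was 2.84 tags for grouped peaks (95% interval of the median 2.16 to 3.41) and 1.26 tags for isolated peaks (1.13 to 1.35). In the MTX list it was 3.0 tags (2.0 to 5.95) and 1.25 tags (1.02 to 2.0), so the intervals met at 2.0 tags. Median backgrounds of isolated peaks thus lay close to the genome average, and those of grouped peaks at 2.76 times (control) and 2.93 times (MTX) this level. A background of at least 5 tags was found behind 16 of 73 grouped control peaks (21.9%, 14 to 32.7%) and 1 of 77 isolated ones (1.30%, 0.230 to 7.00%). In the MTX list it was found behind 17 of 48 grouped peaks (35.4%, 23.4 to 49.6%) and 1 of 14 isolated ones (7.14%, 1.27 to 31.5%). These MTX intervals overlapped. Counted before scaling, a rule chosen after the data were seen, at least 5 input tags stood behind 28.8% of grouped control peaks (19.7 to 40.0%), with the other 3 shares as they were. The median of grouped control peaks was then 3 input tags, the same as in MTX. The background was within 1% of the genome average behind 14 isolated and 8 grouped control peaks, and behind 4 isolated and 2 grouped MTX peaks. A fold enrichment of at least 5, a filter that itself favours low backgrounds, left 22 grouped control and 18 grouped MTX peaks. The background then reached 5 tags in 9.09% of grouped and 0% of isolated control peaks, and in MTX in 0% of grouped (0 to 17.6%) and 8.33% of isolated peaks (1.49 to 35.4%). The latter is 1 of 12 peaks, at a background of 5 tags, so no order can be read from it. The median was 2.27 tags in grouped (1.26 to 2.84) against 1.13 in isolated control peaks (1.08 to 1.26), so the intervals met. In MTX it was 1.62 tags in grouped (1.23 to 2.0) against 1.19 in isolated peaks (1.02 to 2.0), so the intervals overlapped.

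**Figure D2:**
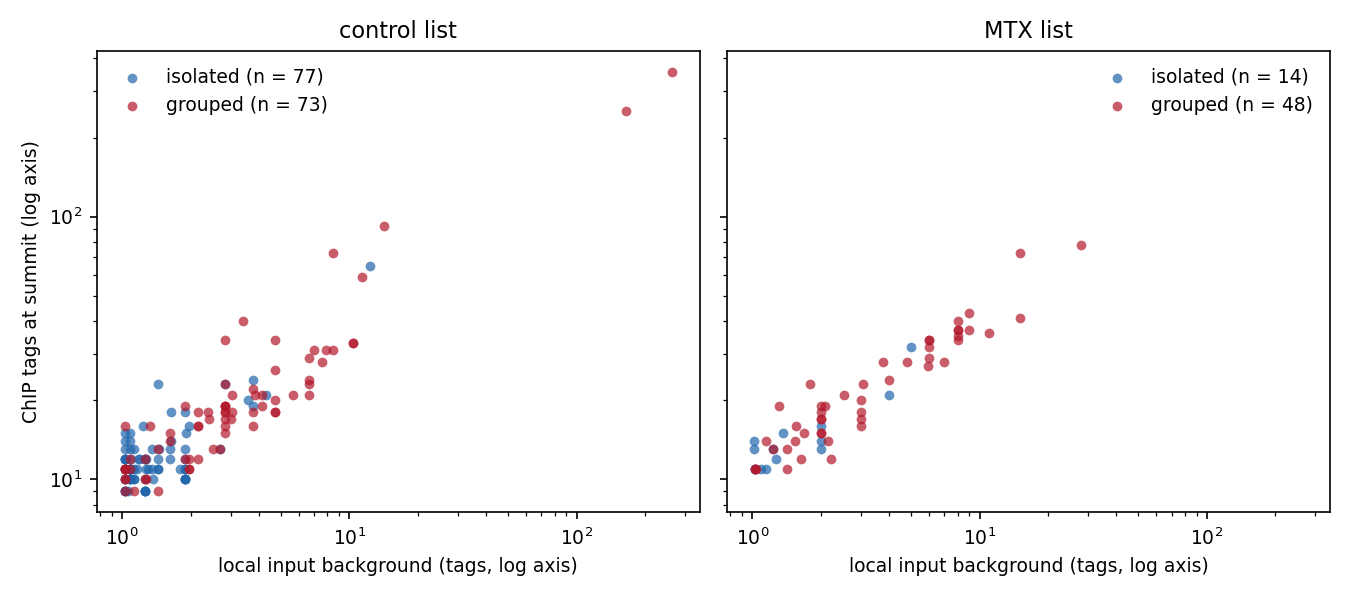
ChIP tags at the summit before scaling against the local input background in tags, both on log axes, for each list; each point is 1 peak. Grouped peaks reach higher backgrounds than isolated peaks, and the 2 control peaks at the upper right, with backgrounds of 166 and 263 tags, lie at the start of chromosome 9.

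Most isolated peaks were called from few tags. The median pileup was 11 for isolated and 18 for grouped control peaks, with intervals of 11 to 12 and 16 to 19. The deposited MTX pileups are scaled by 0.927, the ratio of the input to the ChIP library, and their median was 12.05 for isolated peaks (10.2 to 14.8) and 18.1 for grouped peaks (15.8 to 26.0). Before scaling this is 13 and 19.5 tags. Among isolated control peaks, 8 had 9 tags and 14 had 10 tags at the summit, and 52 of 77 had at most 12. No MTX peak among the 62 had under 11 tags. At the genome-average background, 8 tags in the control and 9 in MTX would reach the weakest p-value found in the respective list. Among isolated peaks of at least 11 tags, a limit chosen after the data were seen, 55 control and 14 MTX peaks remained, a ratio of 0.255 (0.143 to 0.454). When the classes were set anew among peaks of at least 11 tags, the ratio was 0.237 for isolated (0.134 to 0.422) and 0.774 for grouped peaks (0.532 to 1.13), so that the latter included equal numbers. At this limit the number of isolated peaks was still lower in MTX. The limit is the lowest tag number of these MTX peaks, so it removed control peaks only. The effect of depth on the ratio was not tested. Median fold enrichment was slightly higher in isolated peaks, at 5.35 against 4.81 in the control and 5.35 against 4.65 in MTX, and these intervals overlapped in both lists. With at least 11 tags the control medians were 5.76 for isolated (5.53 to 5.91) and 4.69 for grouped peaks (4.03 to 5.21), and no longer overlapped. A filter at a fold enrichment of at least 5 gave medians of 5.77 (isolated) and 5.91 (grouped) in the control and 5.54 and 5.69 in MTX, but it selects on the value compared. Grouped peaks thus had more tags, and without that filter their median fold enrichment was not higher.

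**Figure D3:**
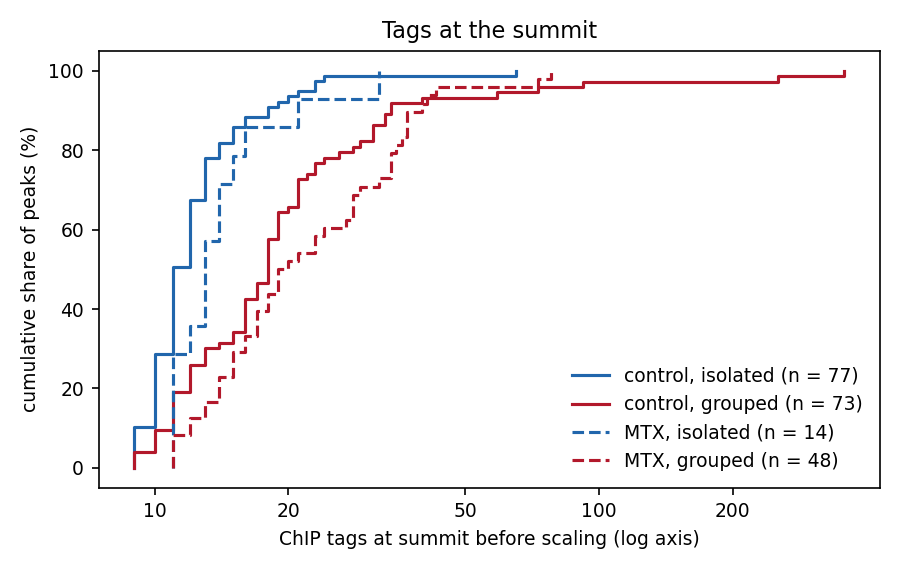
Cumulative share of peaks (%) by the number of ChIP tags at the summit before scaling (log axis), for isolated and grouped peaks of each list. Isolated peaks have a median of 11 tags in the control and 13 in MTX, against 18 and 19.5 for grouped peaks.

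Median peak length was similar in the classes when all peaks were counted. The median was 220 bp for grouped and 217 bp for isolated control peaks, with intervals of 206 to 250 bp and 192 to 225 bp. In MTX it was 236.5 bp (210 to 257) and 202.5 bp (192 to 267). At a fold enrichment of at least 5 the medians of the control were further apart, at 287.5 bp for grouped (201 to 341) and 204 bp for isolated peaks (190 to 219). With at least 11 tags they were 230 bp (213 to 282) and 205 bp (190 to 220). The shortest length a peak can have is the fragment length, which was 190 bp for the control and 192 bp for MTX. A length within 1 bp of this was found for 29 of 77 isolated control peaks (37.7%, 27.7 to 48.8%) and 14 of 73 grouped ones (19.2%, 11.8 to 29.7%). In the MTX list it was found for 4 of 14 isolated and 8 of 48 grouped peaks. The longest peak of all, 886 bp, was a grouped control peak in 2700054A10Rik, and the longest isolated peak was 413 bp. None of the 212 peaks reached 1 kb. They were called as narrow peaks, so their length cannot show whether broad domains were present on these chromosomes.

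All 12 chains of at least 4 peaks held peaks of both lists. The largest was the Speer array on chromosome 5 (chr5:14914416-15712078), a family of spermatogenesis-associated glutamate-rich proteins, with 3 control peaks and 9 MTX peaks. Its protein-coding genes that hold a peak are Gm9758, Gm17019, Gm21190 and Speer4c, and the backgrounds ran from 3.74 to 11 tags. The strongest imbalance in the other direction was in the Serpina array on chromosome 12 (chr12:103747503-104300099), with 7 control peaks and 1 MTX peak. Serpina1 genes encode alpha-1-antitrypsin, a protease inhibitor made in the liver. A control peak lay inside Serpina1a and others lay inside the pseudogenes Gm17042 and Gm17043, with backgrounds of 1.02 to 3.78 tags over the chain. On chromosome 14, where most genes of the arrays are predicted ones, 1 chain (chr14:4599280-5274403) held 5 control and 3 MTX peaks, in or near Gm8159 and Gm10410. The next chain on chromosome 14 (chr14:5841605-7427666) held 4 control and 6 MTX peaks, in or near Gm21103, Gm26630, Gm3629 and 4930521O11Rik, and 49 of its 56 RefSeq genes carry a predicted-gene symbol. A chain of 2 control and 2 MTX peaks lay within 1700110I01Rik (chr14:3282586-3302069).

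The Cyp3a41 chain on chromosome 5 (chr5:145559577-145694407) held 5 control and 2 MTX peaks. A control peak lay in an exon of Cyp3a41a and an MTX peak in an intron of Cyp3a41b. The paper names no filter for reads that match more than 1 place. How reads were placed among near-identical copies was not tested. The copy to which a peak is assigned is therefore uncertain in this and the other arrays, as are overlaps between lists within them. The Mup17 to Mup19 chain on chromosome 4 (chr4:61568477-61822948), of major urinary protein genes, held 2 control and 4 MTX peaks, and 1 MTX peak lay within Mup18. The Tdpoz chain on chromosome 3 (chr3:93744910-94226716), whose genes encode proteins with TRAF and POZ domains, held 5 and 4, and 1 control peak lay in an exon of Tdpoz3. In the immunoglobulin heavy chain locus Igh (chr12:115554763-115832647), 2 control and 3 MTX peaks lay among variable segments, on backgrounds of 3.0 to 10.4 tags. In 2 chains no peak lay inside a RefSeq gene. The chain near AA414992 and Urml (chr13:68028510-68560285) held 6 control and 4 MTX peaks, and the chain near Gm10505 and Mir7214 (chr17:27256050-27377646) held 4 and 3. The last chain, on chromosome 17 near Tcp10c of the t-complex (chr17:13305963-13553079), held 3 control and 2 MTX peaks, of which 4 lay in 2700054A10Rik. By number, 7 of the 12 chains had more control peaks, 4 had more MTX peaks and 1 had equal numbers. The share of MTX peaks was 12.5% in the Serpina chain (2.24 to 47.1%) and 75% in the Speer chain (46.8 to 91.1%). Among all grouped peaks it was 39.7%, which the interval of the Serpina chain includes and that of the Speer chain does not. Both chains are named here as the extremes of 12.

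**Figure D4:**
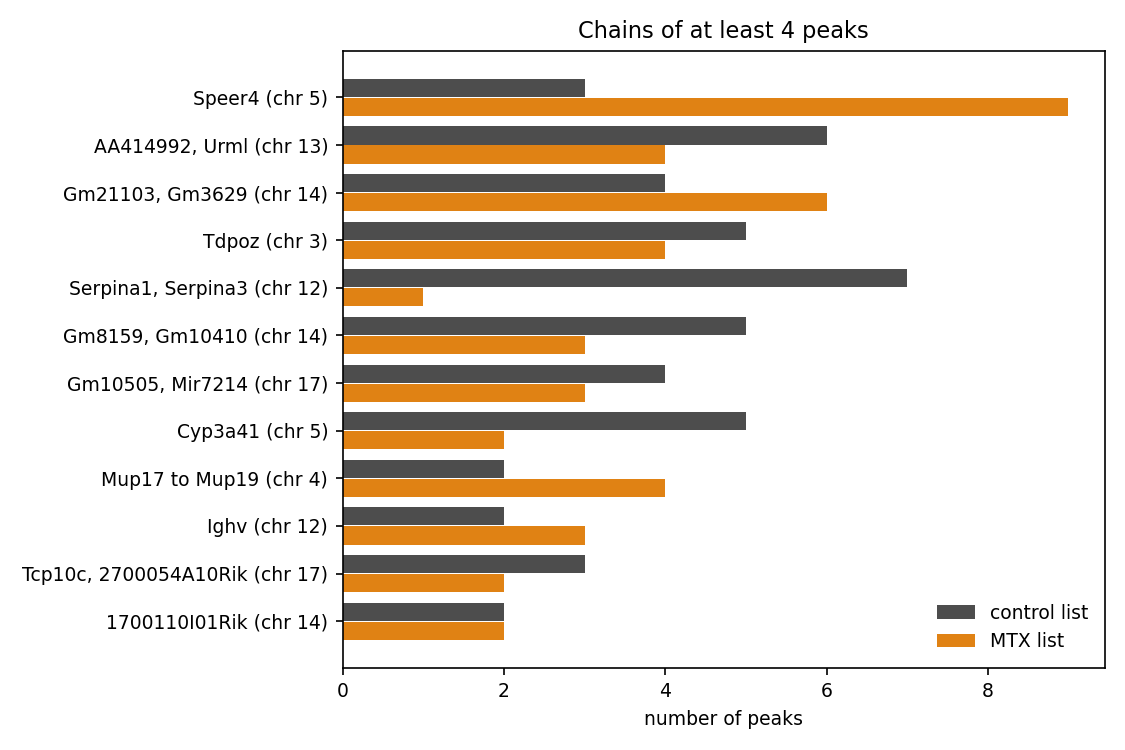
Number of peaks of the control and MTX lists in each of the 12 chains of at least 4 peaks, named by genes in or beside the chain. Every chain has peaks of both lists; Speer4 has 9 MTX peaks against 3 control peaks, and Serpina1 with Serpina3 has 7 control peaks against 1.

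Chains of 1 list occurred among those of 2 or 3 peaks, where the small size itself makes them more likely. Of the 25 chains, 10 had control peaks only and 1 had MTX peaks only. The MTX pair lay in an intron of Akap9 (chr5:4053197-4054346), which encodes a centrosomal anchoring protein of protein kinase A. Its peaks had pileups of 67.7 and 72.3, the highest in the MTX list outside chromosomes 1 and 7, and backgrounds of 15.0 and 28.0 tags. In the control list, 3 peaks lay within 2 kb in the pseudogene Gm20590 (chr13:74528719-74530670). They had pileups of 34, 40 and 73 and backgrounds of 3.41 to 8.51 tags, and 1 of them had the highest fold enrichment of all grouped peaks, 9.29. Another 3 control peaks lay within Gm3029 (chr14:3896852-3899618). A pair of control peaks at the start of chromosome 9 (chr9:3010860-3023638) had the highest pileups of all, 253 and 356. It stood on backgrounds of 166 and 263 tags, so that its fold enrichments of 1.53 and 1.35 were the lowest. After these peaks, the highest fold enrichments of grouped control peaks were 9.12, in Gm36684 of the Tcp10c chain, and 8.38, in Gm17042 of the Serpina chain. Those of grouped MTX peaks were 8.07 in Mup18, 8.01 in Gm21103 and 6.50 at 16.2 kb from the start of Tdpoz9.

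Sites called in both lists were few. Over all chromosomes, 15.5% of control peaks were overlapped by at least 1 bp of an MTX peak, and 26.7% of MTX peaks by a control peak. On the chromosomes described here, 5 of 150 control peaks (3.33%, 1.43 to 7.57%) and 6 of 62 MTX peaks (9.68%, 4.51 to 19.5%) were overlapped. All of them lay in chains of at least 4 peaks, where they made up 5 of 48 control and 6 of 43 MTX peaks. Chain size counts the peaks of both lists, so a shared site itself adds to the size of its chain. An overlapping peak is itself a neighbour, so an isolated peak cannot be shared under this definition. When only neighbours without overlap were counted, the classes did not change, and 0 isolated peaks were shared. Hence no site called in both lists stood alone.

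At 4 of the 5 shared sites, the tags at the summit did not differ beyond counting error. They are given as RPM, a per-million scale over the ChIP tags of each library. In Gm8159 (control chr14:4599320-4599868, MTX chr14:4599280-4599529) the control peak had 2.1 RPM (95% Poisson interval 1.43 to 2.98) and the MTX peak had 2.04 (1.40 to 2.89). At the start of Gm21190 (control chr5:15529152-15529351, MTX chr5:15529126-15529409) the values were 2.24 (1.54 to 3.14) and 2.30 (1.61 to 3.18). These sites lay on high backgrounds of 7.91 and 6.0 tags in Gm8159, and of 10.4 and 11 tags at Gm21190, so their fold enrichments were 3.59 and 4.38, and 2.98 and 2.86. At the site in the Mup array (control chr4:61568486-61568767, MTX chr4:61568477-61568712), between Mup genes, the values were 1.96 (1.32 to 2.82) and 1.47 (0.932 to 2.21). Its background was 6.62 tags in the control and 3.07 in MTX, so the fold enrichment was higher in MTX, 5.48 against 3.94. At the site in the Gm10505 chain (control chr17:27260486-27260827, MTX chr17:27260615-27260921) they were 1.22 (0.723 to 1.93) and 1.09 (0.633 to 1.74), with backgrounds of 2.39 and 2.0 tags and fold enrichments of 5.60 and 5.59.

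The site in 2700054A10Rik differed. The control peak (chr17:13552194-13553079) had 92 tags, or 6.23 RPM (5.02 to 7.64). It was overlapped by 2 MTX peaks, at chr17:13552205-13552461 with 1.53 RPM (0.983 to 2.28) and at chr17:13552624-13553002 with 2.36 (1.66 to 3.26). The summit of the second MTX peak lay 36 bp from the control summit, and that of the first 592 bp from it. The input moved in the same direction, with a background of 14.2 tags in the control and of 4.0 and 9.0 tags in MTX. The fold enrichment was 6.12 in the control and 4.65 and 3.53 in MTX. The part of the input in this difference was not tested.

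**Figure D5:**
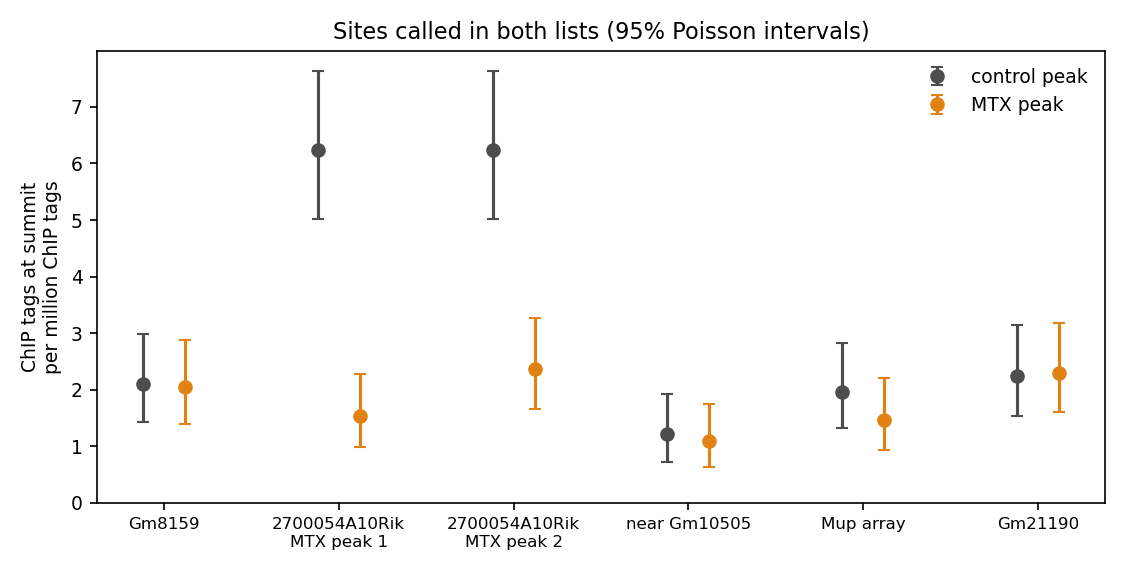
ChIP tags at the summit (RPM) for each pair of overlapping control and MTX peaks, with 95% Poisson intervals; the control peak in 2700054A10Rik is drawn beside each of its 2 MTX peaks. Intervals overlap at the other 4 sites, and the control peak in 2700054A10Rik, at 6.23 RPM, lies above both MTX peaks.

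Genes were linked to the minority of peaks in both classes. Matched by position with the peak-to-gene table that accompanies the study, 25 of 73 grouped control peaks (34.2%, 24.4 to 45.7%) and 17 of 77 isolated ones (22.1%, 14.3 to 32.5%) had a gene. In MTX, 18 of 48 grouped (37.5%, 25.2 to 51.6%) and 5 of 14 isolated peaks (35.7%, 16.3 to 61.2%) had one. Over all chromosomes of the series the share was 40.2% in the control and 48.4% in MTX. Intervals of grouped and isolated peaks overlapped in both lists. For grouped control peaks the share was 22% without chromosome 14 and 18.2% at a fold enrichment of at least 5, so that it was no longer above that of isolated peaks. The intron class was the most frequent, with 20 grouped and 15 isolated control peaks and 16 grouped and 5 isolated MTX peaks. The exon class held 3 grouped and 1 isolated control peaks and 1 grouped MTX peak. The promoter class held 5 grouped and 2 isolated control peaks, and 3 grouped and 1 isolated MTX peaks. A peak can be in more than 1 class. By RefSeq positions, 32 grouped and 22 isolated control peaks lay in a gene of any kind, but only 12 and 15 in a protein-coding one. In MTX, 23 grouped and 7 isolated peaks lay in a gene, and 12 and 4 in a protein-coding one.

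Grouped control peaks lay nearer to gene starts than isolated control peaks. The median distance from the summit to the nearest RefSeq start of a protein-coding gene was 37.2 kb for grouped control peaks (31.1 to 50.3) and 141 kb for isolated ones (98.1 to 224). In MTX it was 32.6 kb (25 to 50.5) and 79.7 kb (19.8 to 161), with overlapping intervals. Starts on chromosome 18 were not used here, which left 3 isolated control peaks without a distance. A summit within 3 kb of a start was found for 7 grouped MTX peaks, at Gm9758, Gm21190, Gm21083 and Speer4c of the Speer chain, Mup18, Tdpoz4 and Gm428. In the control list it was found for 2 grouped peaks, at Gm17019 and Gm21190, and for 2 isolated peaks, at Smok3a, a sperm motility kinase gene, and Gm7954. Apart from Smok3a and Gm7954, the starts named here are near grouped peaks, which belong to chains by definition. Most of these starts are in the Speer chain.

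Few protein-coding genes had a peak, and none of a list of highly expressed genes did. Of 18649 protein-coding genes on these chromosomes, 28 (0.15%) had a control peak and 16 (0.0858%) an MTX peak inside the gene or within 3 kb. H3K79me2 is known to mark transcribed genes, so 24 genes known for high expression in mESC were looked up on these chromosomes. They included the pluripotency factors Pou5f1, Sox2, Nanog, Klf4 and Esrrb and housekeeping genes such as Actb, Gapdh, Eef1a1 and Npm1. None of the 24 (0 by control peaks, 0 by MTX peaks) had a peak inside the gene or within 3 kb. With shares this low among protein-coding genes, 0 of 24 says nothing particular about expressed genes. The nearest peak to any of them was a control peak at 897 kb from Npm1, which encodes nucleophosmin, and chromosome 16, which holds Dppa4, had 0 peaks. The lists hold no signal outside peaks, so a level of H3K79me2 at these genes below the calling threshold cannot be measured from them.

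Of isolated control peaks, 22 of 77 lay inside a RefSeq gene (28.6%, 19.7 to 39.5%), and of isolated MTX peaks 7 of 14 (50%, 26.8 to 73.2%), with overlapping intervals. The highest fold enrichments were 9.84 at chr15:34698774-34698988, in no gene and 2454 kb from the nearest protein-coding start, 7.89 at chrX:45242394-45242583, also in no gene, and 7.70 in an intron of Ccnb3, which encodes the meiotic cyclin B3. The last 2 rested on 15 tags each. In MTX they were 6.91 in the long non-coding RNA gene Gm38630, 6.46 at chr11:10953137-10953342 in no gene, and 6.31 in the pseudogene Rdh18-ps, with 14, 13 and 15 tags. The isolated peak with the most tags, 65, lay at chr3:142191664-142191874 on a background of 12.3 tags. It was the only isolated control peak with a background of at least 5 tags. The only isolated MTX peak at such a background was the promoter-class peak at chr4:145631988-145632206, in no RefSeq gene, with 32 tags on a background of 5.0 tags.

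The isolated control peaks of the intron class were spread over genes of many functions. The highest tag number among them was 24, in Prkca, which encodes protein kinase C alpha. Next were 16 tags in Cfap20dc, 15 in Ccnb3 and 14 in Cap2, which encodes a regulator of actin. Peaks of 13 tags lay in Ifngas1, a long non-coding RNA gene beside Ifng, and in Wwox, which encodes a WW-domain oxidoreductase. Those in L3mbtl4 and Smok3a had 12 tags each. Spag17, a gene of the sperm axoneme, Trabd2b and Pde3a, a phosphodiesterase gene, had 11 each. Lcp2, which encodes an adaptor of T cell receptor signalling, had 10, and Itgbl1, Fam227b and BC006965 had 9. The Cap2 peak was also in the promoter class, and another isolated promoter-class peak lay at chr13:106787288-106787477, in no RefSeq gene, with 11 tags. The single isolated exon-class peak lay in Gm5862 with 15 tags. In MTX, isolated intron-class peaks lay in Rdh18-ps with 15 tags, in Sdk2, a cell adhesion gene, with 14, in Zcwpw2 with 13 and in Amph, the amphiphysin gene, with 11. The other isolated MTX peak of the intron class was the one at chr4:145631988-145632206 with 32 tags, which was in the promoter class too.

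Genes that hold grouped peaks often had a near-identical promoter elsewhere. A near-identical copy was counted when at least 200 bases of the window aligned with at least 90% identity to the window of another gene. Of all 27025 genes with a promoter sequence, 2043 (7.56%) had such a copy. Of genes with a promoter sequence that hold a grouped peak, 16 of 24 had one (66.7%, 46.7 to 82.0%), among them Cyp3a41a, Cyp3a41b, Mup18, Serpina1a, Speer4c, Gm17019 and Gm21190. Of genes that hold an isolated peak, 3 of 20 had one (15.0%, 5.24 to 36.0%), namely Smok3a, Gm5862 and Gm32558. Within the chains of at least 4 peaks, 83 of 104 genes had a copy (79.8%). Most of them were on chromosome 14, with 38 of 41 at chr14:5841605-7427666 and 16 of 17 at chr14:4599280-5274403. It was 9 of 11 in the Speer chain, 4 of 5 in the Mup17 to Mup19 and Tdpoz chains and 2 of 2 in the Cyp3a41 chain. The share was lower in the Serpina chain, at 5 of 14, and in the Tcp10c chain, at 2 of 5, where 0 had a copy within the chain. The remaining chains hold 1 gene with a promoter sequence each. The closest pairs inside a chain were identical over 300 bases in the second chain of chromosome 14 (Gm16434 and Gm6676) and differed at 1 of 300 bases in the Tdpoz chain (Tdpoz5 and Tdpoz7). These values are for promoter windows, which only the peaks at Gm21190 touched among the peaks compared. Whether the sequences under the other peaks also have copies was not tested.

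The tandem families that were listed lay near grouped peaks more often than near isolated ones. A gene of the Serpina1, Mup, Cyp3a, Speer, Ighv, Tcp10, zinc finger or receptor families lay within 100 kb of 45 of 121 grouped peaks (37.2%, 29.1 to 46.1%) and of 7 of 91 isolated peaks (7.69%, 3.78 to 15.0%). The Speer family had 12 grouped peaks and 1 isolated peak, Mup had 9 and 0, Serpina1 7 and 0, Cyp3a 7 and 1, Ighv 5 and 0, zinc finger genes 4 and 3, Tcp10 1 and 0, and olfactory or vomeronasal receptor genes 0 and 3. Amylase, prolactin, Xlr, Slx, Csprs, Pramel and Skint genes had 0 in either class. Predicted genes were near 103 grouped peaks (85.1%) and 68 isolated ones (74.7%), and so hardly set the classes apart. No symbol of the alpha-takusan family was in the gene table. The list did not hold the Tdpoz genes, near which 9 grouped peaks formed a chain, and some of its families were chosen with these peaks known, so the shares depend on which families were listed.

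Compared with chromosomes 1 and 7, peaks on these chromosomes had lower medians of tags and background. The median pileup was 13 (control) and 16.2 (MTX), against 34.5 and 31.5 on chromosome 1 and 29 and 21.3 on chromosome 7. The median background was 1.63 and 2.05 tags, against 9.46 and 6.0 on chromosome 1 and 5.68 and 3.13 on chromosome 7. Grouped peaks, at 2.84 and 3.0 tags, lay between these, and for MTX close to the value of chromosome 7. For all MTX peaks described here, the intervals overlapped those of chromosome 7. They were 13.9 to 21.3 and 19.5 to 33.4 for pileup, and 2.0 to 3.07 and 2.0 to 4.0 tags for background. A background of at least 5 tags stood behind 29.0% of MTX peaks here, 22.5% on chromosome 7 and 59.3% on chromosome 1. The median fold enrichment, 5.21 and 4.97, was above that of chromosome 1, 3.37 and 4.31, while that of chromosome 7 was 4.30 and 5.28. For MTX, the intervals of the peaks described here and of chromosome 1 overlapped (4.61 to 5.50 and 3.95 to 4.74). Overlap between lists was higher on chromosome 1, at 26.6% of control and 42.4% of MTX peaks, and on chromosome 7, at 44.4% and 30.0%. For MTX, the intervals of this share here and on chromosome 7 overlapped (4.51 to 19.5% and 18.1 to 45.4%).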

How the data were processed

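H3K79me2 ChIP and input libraries of control and MTX-treated mESC were used, 1 of each per condition. The authors used Bowtie2 with default settings for mapping. Narrow peaks came from MACS 2.1.1.20160309, run per condition on the ChIP with its own input (q-value below 0.05, a maximum of 1 tag at each position, larger library scaled down to the smaller). Per the file headers, total tags were 19303133 and 19633214 (control ChIP, input) and 19586793 and 18109723 (MTX). The signal the authors deposited is the pileup at the summit. The deposited fold enrichment is its ratio to the local background. The −log10 p-value and q-value are also the authors' deposited values. The build is not named, but the effective genome size of 2725537669 bp in the headers is that of GRCm38, and 150 of 167 peaks of the table's exon or intron classes lay inside a GRCm38.p6 RefSeq gene.

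Groups, overlaps (at least 1 bp) and backgrounds were computed with numpy 2.4.6, scipy 1.17.1 and pandas 2.3.3 in Python 3.11.15, and tested on simulated data. A Poisson p-value recomputed from the background differed from the deposited −log10 value by at most 0.00340. Whole MTX tags were recovered by dividing by 0.927, with a remainder of at most 0.00532. Promoters were compared with blastn 2.17.0 (megablast, same strand), and plots were drawn with matplotlib 3.10.9. All 52 control and 28 MTX rows of the peak-to-gene table on these chromosomes matched their list. Intervals are at 95%: Wilson for shares, exact Poisson for tags and order statistics for medians. Ratio intervals are the Wilson interval of the MTX share, written as a ratio.

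The named genes are those in chains of at least 4 peaks with a linked gene, all shared sites, the 3 peaks of highest fold enrichment per class and list, and isolated peaks of the exon, promoter or named intron class; further ones were chosen after their values were seen. Of 28 expressed genes listed, 4 on chromosomes 1 and 7 were left out. The members and lists were chosen with earlier results of these data known. The control input was scaled by 0.946 and the MTX ChIP by 0.927. Alternatives covered the grouping distance, the neighbour definition, the q-value, fold enrichment, chromosome 14, the overlap rule, the background level and merging. Reads and signal tracks were not analysed here.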

Additional observations from a re-analysis of the deposited data

How the results depend on the processing

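No paired analysis was possible because no result comes from a test, there being 1 library of each kind. Of 312 values recomputed under alternatives, 294 lay within the interval of the reported value and 0 reversed the order of grouped and isolated peaks where their intervals were separate. The MTX median background was counted as separate there, although its intervals met at 2 input tags. At a fold enrichment of at least 5, 22 grouped and 58 isolated control peaks and 18 grouped and 12 isolated MTX peaks remained, so 27.5% and 60.0% were grouped. The median background was then 1.62 tags for grouped MTX and 1.13 tags for isolated control peaks. A background of at least 5 tags was found for 9.09% of grouped control, 0% of isolated control, 0% of grouped MTX and 8.33% of isolated MTX peaks. The median length of grouped control peaks was 287.5 bp, the median pileup of grouped MTX peaks 15.3, and the median fold enrichment 5.91 and 5.77 for grouped and isolated control and 5.69 and 5.54 for grouped and isolated MTX peaks, an order opposite to that of all peaks. Genes were linked to 18.2% of grouped control peaks, and 5.56% of grouped MTX peaks were overlapped. The fold enrichment medians rise and high backgrounds are removed by the construction of this filter, while for length, pileup, overlap and linked genes the cause was not tested. Grouping at 100 kb left 39.3% of control peaks grouped. Without chromosome 14, 22% of grouped control peaks had a linked gene. A background of at least 3 tags was found for 42.5% of grouped control peaks. Of the alternatives chosen after seeing the data, a minimum of 11 tags raised the median fold enrichment of isolated control peaks to 5.76, while counting neighbours of the same list only, leaving out the pair on chromosome 9, or counting input tags before scaling moved no value beyond its interval. With a peak of the other list within 1 kb counted as shared, 8 grouped control and 8 grouped MTX peaks were shared. The cause of these changes was not tested. Isolated peaks rest on a median of 11 to 13 tags, and the effect of depth on their number was not tested.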
